A study of Xenopus tropicalis with 12 samples.

Results

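Intestinal RNA of TRα(-/-) Xenopus tropicalis tadpoles that had received T3 was compared with intestinal RNA of untreated wild-type tadpoles. The comparison uses 6 of the 12 libraries of the series, 3 labelled T3Homo and 3 labelled contWT. They were chosen because these are the groups whose column labels in the count table give the same identity as their sample titles. The contWT libraries are wild type without hormone. The T3Homo libraries lack thyroid hormone receptor alpha on both alleles and come from tadpoles kept in 10 nM T3 for 18 h. Both groups were taken at stages labelled 52 to 54, from tadpoles with the same parents. The kind of mutation in the TRα gene is not given in the sources used here.

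Genotype and treatment change together between contWT and T3Homo, so the part of each in a difference cannot be told apart. The other groups are labelled contHomo and T3WT, again with 3 libraries each. Their column labels read TRα(-/-) without T3 and wild type with T3, while their titles and treatment labels read wild type with T3 and TRα(-/-) without T3. Their values are therefore given by column label and are not used to assign a difference to genotype or to hormone. The submitters describe each set of 3 as repeat libraries of 1 RNA sample, for which RNA of several tadpoles was combined. P-values accordingly measure how much such repeat libraries vary, and how much animals vary was not measured. In bulk RNA of this kind, fewer cells of a type and less RNA per cell cannot be told apart.

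Thyroid hormone drives frog metamorphosis, in which the larval intestine is remodelled: much of the larval epithelium dies and an adult epithelium with its own stem cells replaces it. T3 acts through the nuclear receptors TRα and TRβ, which bind DNA as partners of the retinoid X receptor. Without hormone the receptors recruit corepressors to T3 response genes, and with hormone they recruit coactivators. TRα is present in tadpoles before their own hormone rises, and TRβ is itself a T3 response gene, so an animal without TRα can still hold a receptor for T3.

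Depth was 35951142 to 38423895 counts per contWT library and 40295245 to 44755390 per T3Homo library, and between 14751 and 14855 genes were detected in each. Of 19921 genes in the table, 13172 passed the filter on low counts and were tested. The table pairs nuclear gene identifiers with no gene names, and none could be matched to a symbol. The level of the TRα gene, markers of intestinal and other cell types, and T3 response genes were therefore not analysed here. Nuclear genes are described by position on the scaffolds of the deposited table, by level and by exon structure. The 13 mitochondrial genes that encode proteins could be named by position.

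The T3-treated TRα(-/-) intestine stood far from the untreated wild-type intestine by comparison with the spread between libraries. The distance between libraries was taken as the percentage of all counts that would have to move between genes to turn one library into the other. It was 0.767% to 1.21% between contWT libraries and 0.788% to 0.999% between T3Homo libraries. Between a contWT and a T3Homo library it was 11.5% to 12.1%, with a median of 11.7%, and no pair across the groups came near the distances within a group. The other groups place this value among those of the series. From contWT to contHomo libraries the distance was 8.30% to 8.37%, and from contWT to T3WT libraries it was 16.9% to 17.5%. From T3Homo, contHomo libraries lay at 7.87% to 8.26% and T3WT libraries at 13.7% to 13.9%. The T3Homo libraries were thus nearer to contHomo than to contWT, and nearer to contWT than to T3WT, with no overlap between these ranges.

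Few genes carried much of this distance, which is measured in counts and so weighs abundant genes most. Of all genes in the table, 91 (0.457%) accounted for 50% of the counts that moved between the mean profiles. For comparison, the 100 most abundant genes held 49.4% of all counts in contWT. The 10 genes with the largest gains took up 3.40% of all counts, and the 10 with the largest losses gave up 2.56%. The values of the next loci were known when these were chosen. The largest gain was at a gene of 21 exons on scaffold GL172796.1, positions 1866324 to 1882906. Its level in CPM (counts scaled to a common effective library size) was 11286, 11373 and 11466 in contWT and 21208, 21312 and 21379 in T3Homo. All T3Homo libraries lay above all contWT libraries, and also above the means of contHomo (14840) and T3WT (12891). The log2 fold change was 0.90 ± 0.01 (SE, n = 3 and 3, edgeR adjusted p = 1.47e-78). The largest loss was at a gene of 4 exons on GL172675.1, positions 1371851 to 1375343, which stood at 46881, 47106 and 47650 CPM in contWT and at 39048, 39375 and 38871 CPM in T3Homo. Its groups did not overlap either, at a log2 fold change of -0.27 ± 0.01 (edgeR adjusted p = 2.36e-37). Neither gene reached a 2-fold change.

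A gene was called changed at an edgeR adjusted p below 0.05 and a fold change of at least 2. By this rule 1478 of 13172 genes changed (11.2%), 674 of them higher in T3Homo (5.12%) and 804 lower (6.10%). The libraries of the groups did not overlap for 1442 of the 1478 called genes, beside 9248 (70.2%) of all genes tested. The median log2 fold change over all genes was 0.00, beside 0.062 with total-count scaling. The scaling used here sets most genes near 0, so the 0.00 does not show that rises and falls balanced. Without the fold threshold 4546 genes rose and 4503 fell (34.2% of those tested). Of the calls, 601 lay between 2-fold and 2.5-fold, near the threshold.

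Falls made up a larger share of the larger changes, up to 8-fold. Of all calls 54.4% were lower, and of the 348 genes changed at least 4-fold, 135 rose and 213 fell (61.2% lower). At 8-fold or more 38 rose and 97 fell (71.9%), and at 16-fold or more 22 rose and 56 fell (71.8%). With total-count scaling the direction over all calls turned, to 763 higher and 739 lower (49.2%), while at 4-fold or more 149 rose and 197 fell and at 8-fold or more 39 rose and 92 fell. The genes changed at least 16-fold were scarce in the libraries, as were called genes in general. The median level of the 56 was 2.05 CPM in contWT, beside 2.17 CPM over all 804 lower genes. That of the 22 was 2.07 CPM in T3Homo, beside 3.66 CPM over all 674 higher genes.

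**Figure D1:**
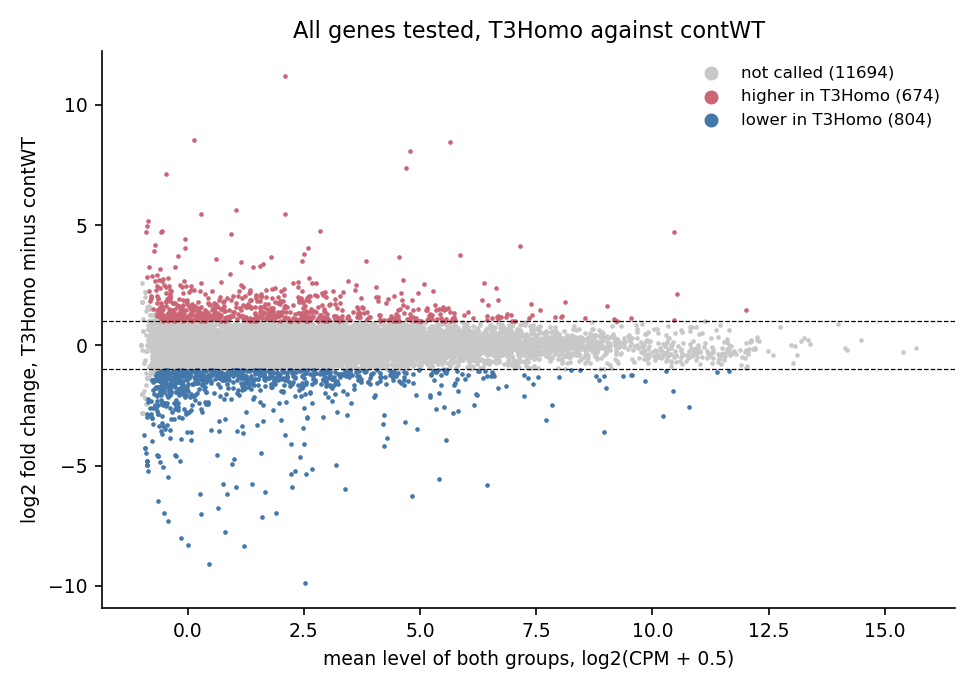
Log2 fold change of each of the 13172 tested genes, T3Homo minus contWT, against the mean level of both groups as log2(CPM + 0.5). Each point is a gene, dashed lines mark a 2-fold change, and the 674 higher and 804 lower genes are coloured. Most of the largest changes lie at low levels, as called genes in general do, and the largest changes are more often falls.

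The excess of falls under TMM scaling lay among genes of low level. The tested genes were split into 4 equal parts of 3293 by mean CPM over all libraries. In the lowest part 296 genes rose (8.99%) and 440 fell (13.4%), and its median level over the contWT and T3Homo libraries was 0.634 CPM. In the next part 195 rose and 195 fell. In the upper parts 97 rose and 91 fell, and 86 rose and 78 fell in the highest, whose median over the same libraries was 61.6 CPM. CPM is not scaled by gene length, so these parts also differ in gene length. The share called was higher at low levels in both directions, and falls outnumbered rises in the lowest of the 4 parts alone. With total-count scaling 332 rose and 409 fell in the lowest part, and rises outnumbered falls in the other parts. This split was not tested.

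Exon number moved with the direction as well. Of 465 tested genes annotated with 1 exon, 31 rose (6.67%) and 63 fell (13.5%). Of 649 with 2 exons, 38 rose and 54 fell (8.32%). The shares came together with more exons: 152 of 3122 genes with over 16 exons rose (4.87%) and 158 fell (5.06%). With total-count scaling 40 single-exon genes rose and 59 fell, while among genes with over 16 exons 172 rose and 143 fell. Level and exon number moved together, since 115 of the 465 single-exon genes lay above the median level. Of these 115, 7 rose (6.09%) and 11 fell (9.57%), while at the same levels 176 of 6471 genes with several exons rose (2.72%) and 158 fell (2.44%). With total-count scaling 10 of the 115 rose and 10 fell. The part of level in the exon pattern was not tested beyond this split.

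**Figure D2:**
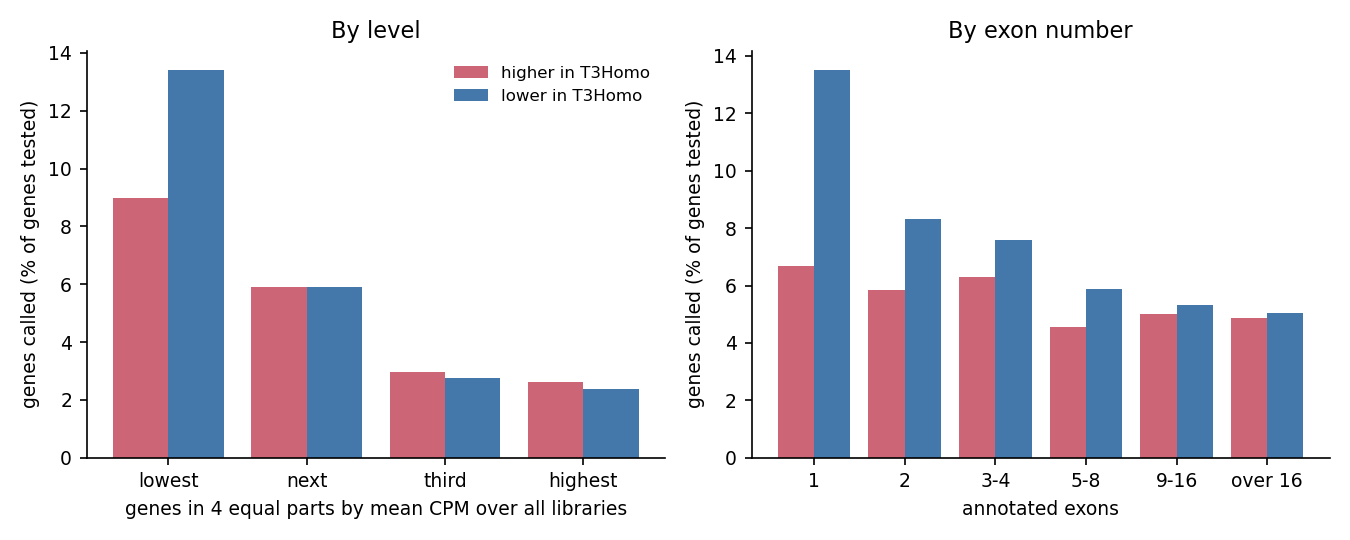
Percentage of tested genes called higher (red) or lower (blue) in T3Homo than in contWT, on the left for 4 equal parts of the genes by mean CPM and on the right by number of annotated exons. Bars start at 0. The part of lowest level has 8.99% higher and 13.4% lower, and single-exon genes 6.67% higher and 13.5% lower.

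Of called genes that reached 5 CPM in the higher group and whose libraries did not overlap, 289 rose and 272 fell. The 2 largest rises of these started at or near 0. ENSXETG00000012944 lies on GL173114.1, positions 648500 to 685614, minus strand, and has 2 exons. It had 0 counts in every contWT library and 7.46, 7.81 and 7.39 CPM in the T3Homo libraries. It was also at 0 counts in contHomo, and at 17.0 ± 0.992 CPM (SD, n = 3) in T3WT. Against a floor of 3 counts over the contWT group, which is 0.0290 CPM, its level in T3Homo was at least 260.4-fold higher (edgeR adjusted p = 5.11e-49). T3Homo therefore shared detection of this gene with T3WT and with no other group.

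ENSXETG00000021140 lies on GL172931.1, positions 1403566 to 1416939, plus strand, and has 8 exons. Its level was 0.450, 0.200 and 0.183 CPM in contWT, on 29 counts in all, and 100.9, 99.6 and 96.6 CPM in T3Homo. The groups were separated by a wide gap, and contHomo at 1.67 ± 0.217 CPM stood nearer to contWT. T3WT was higher still, at 761.5 ± 6.88 CPM (SD, n = 3), so the T3Homo level lay between contWT and T3WT. The log2 fold change was 8.45 ± 0.07 (SE, edgeR adjusted p = 5.44e-96), and ranged from 8.24 to 8.99 when single libraries were left out, the latter without contWT replicate 1.

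The 2 largest falls went to a few counts. ENSXETG00000026601 is on GL172876.1, positions 1039070 to 1048447, plus strand, with 6 exons. It stood at 10.0, 11.4 and 10.0 CPM in contWT and had a single count in T3Homo, in 1 library. It was low in every other group, with 13 counts in contHomo and 37 in T3WT. Its level in contWT thus lay far above that of every other group, though contHomo and T3WT held more counts than T3Homo. The ratio of its levels was 1294, and counting error alone allows 232 to 51167 (exact 95% interval; edgeR adjusted p = 9.12e-56). The fitted log2 fold change was -9.86, and it went from -11.67 without T3Homo replicate 2, which holds the single count, to -9.39 without T3Homo replicate 1.

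ENSXETG00000032881 is on GL172690.1, positions 3197374 to 3225591, minus strand, with 12 exons. It stood at 4.95, 5.20 and 4.88 CPM in contWT and at 0, 0.0483 and 0.0517 CPM in T3Homo, on 4 counts. It had 3 counts in contHomo, while T3WT was at 23.0 ± 0.542 CPM (SD, n = 3), above contWT. This gene therefore followed a different order of groups from the other large fall. Its log2 fold change was -7.13 ± 0.26 (SE, edgeR adjusted p = 3.19e-44), and lay between -7.54 without T3Homo replicate 3 and -6.56 without T3Homo replicate 1.

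**Figure D3:**
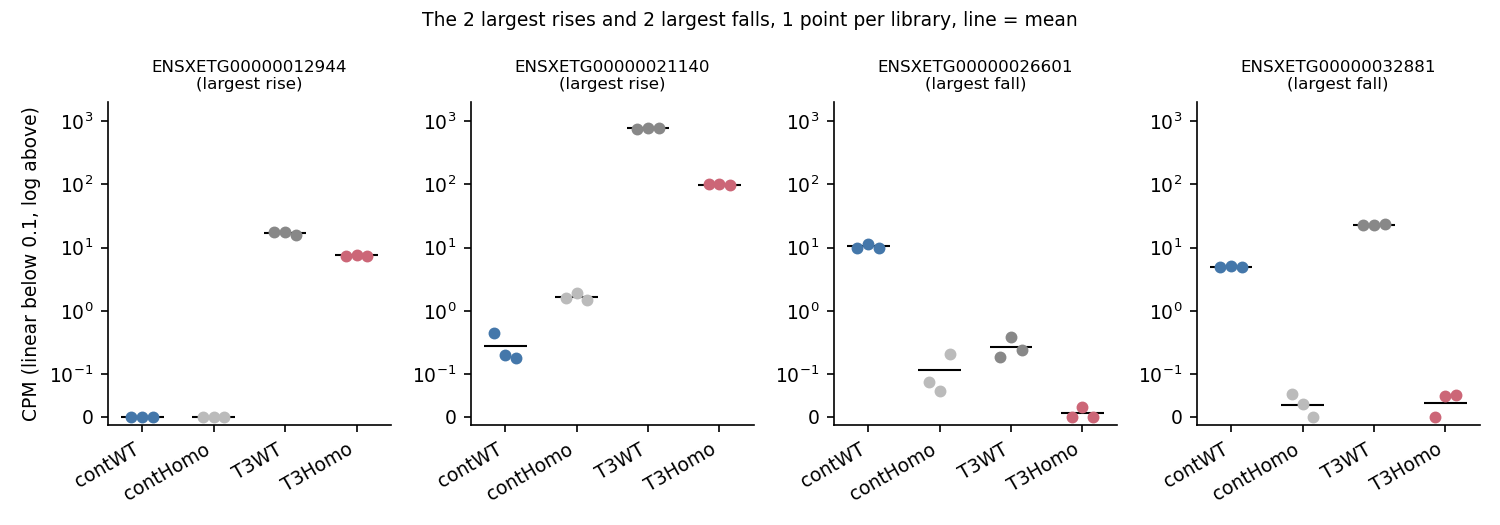
Level of the 2 largest rises and 2 largest falls in CPM, with 1 point per library and a line at the group mean, on an axis that is linear below 0.1 and logarithmic above. The genes were chosen so that the T3Homo points (red) lie apart from the contWT points (blue). The contHomo and T3WT points (grey) fall on different sides from gene to gene.

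Most of the genes detected in contWT only shared an order across the remaining groups, and so did 2 of the 3 detected in T3Homo only. The measure required at least 1 CPM in 1 group and at most 3 counts over the libraries of the other. By it 3 genes were detected in T3Homo only and 8 in contWT only. The 8 had 1.01 to 10.5 CPM in contWT and 0 to 2 counts in T3Homo. For 7 of the 8, contHomo also had at most 3 counts, while T3WT had 2.84 to 25.6 CPM. The exception was ENSXETG00000026601. These 7 were thus detected in contWT and T3WT and at or near 0 in contHomo and T3Homo. The share of all genes with this order is not given here.

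Besides ENSXETG00000012944, the genes detected in T3Homo only lay at GL172875.1, positions 1635992 to 1647663, and at GL172795.1, positions 239287 to 240312. The former had 0 counts in contWT and 146 in T3Homo, at least 40.8-fold higher against the same floor. With 5 counts in contHomo and 17.2 CPM in T3WT, it had an order of groups like that of ENSXETG00000012944. The latter had 3 counts in contWT and 173 in T3Homo, a ratio of 48.4 with a counting interval of 16.3 to 237. It was at 1.55 CPM in contHomo and had no counts in T3WT.

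By CPM gained or lost, the largest changes among called genes were those of the following loci, which too were chosen after their values were seen. A gene of 13 exons on GL173081.1, positions 871398 to 877752, stood at 103.9, 103.7 and 102.5 CPM in contWT and at 2748, 2705 and 2680 CPM in T3Homo. It was at 677 CPM in contHomo and 1632 in T3WT, so T3Homo was the highest of the 4 groups. The log2 fold change was 4.71 ± 0.02 (SE, edgeR adjusted p = 1.09e-126). A gene of 46 exons on GL172686.1, positions 226898 to 288483, went from 2183 ± 44.3 to 6115 ± 110.3 CPM (SD, n = 3), a log2 fold change of 1.49. It was at 2740 CPM in contHomo and 2642 in T3WT, so its high level was found in T3Homo and in no other group. A gene of 2 exons on GL172851.1, positions 995024 to 999715, went from 548 to 2394 CPM, a log2 fold change of 2.13, and its level in T3WT was 2388 CPM.

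The largest loss of CPM among called genes was on GL172665.1, positions 2401509 to 2406629, where a gene went from 3026 ± 22.1 CPM in contWT to 514.3 ± 10.2 CPM in T3Homo (SD, n = 3), a log2 fold change of -2.56. Its level was 2426 CPM in contHomo and 651 in T3WT, so T3Homo and T3WT lay together at the low end. The next in size were on GL173353.1, positions 99337 to 103341, from 4322 to 2089 CPM (log2 fold change -1.05), and on GL172900.1, positions 651997 to 663755, from 3657 to 1700 CPM (log2 fold change -1.11). In T3WT these stood at 1749 and 854 CPM, below contWT as well.

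The most abundant genes as a whole lost a small share. The 100 most abundant genes held 49.4 ± 0.184% of counts in contWT and 48.6 ± 0.0175% in T3Homo (SD, n = 3), a difference of -0.892 percentage points. The exact two-sided permutation test gave p = 0.1, the smallest that 3 against 3 libraries allow. Of the 100, 1 was called higher and 2 lower, beside 5.12% and 6.10% of all genes tested, and 2.61% and 2.37% of the 3293 genes of highest level. At an edgeR adjusted p below 0.05 without the fold threshold, 28 were higher and 69 lower. By the same rule 4546 of the 13172 genes tested were higher and 4503 lower (34.2%). The median log2 fold change of the 100 was -0.21, with a range of -1.11 to 1.49, beside 0.00 over all genes. With the 50 most abundant genes the difference was 0.290 points in the other direction (exact permutation p = 0.1), so the direction depends on how many genes are counted.

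All 13 protein-coding mitochondrial genes were lower in T3Homo. They encode subunits of the respiratory chain and of ATP synthase, which are made inside the mitochondrion, and they were named because their positions match the reference mitochondrial sequence of assembly UCB_Xtro_10.0. Each fell at an edgeR adjusted p below 0.05, where 34.2% of all genes and 69 of the 100 most abundant genes fell by the same rule. None reached a 2-fold change. Their median log2 fold change was -0.37, beside 0.00 over all genes and -0.21 over the 100 most abundant, which hold 3 of the 13. COX2, ATP8 and COX3 fell by less than the median of those 100. The libraries of the groups did not overlap for any of the 13, as for 70.2% of all genes. Since mitochondrial genes are transcribed together from long precursors, the 13 are not independent of one another. These genes were chosen with their values known.

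The fall differed in size among the genes. The 7 subunits of complex I, the NADH dehydrogenase, had log2 fold changes from -0.48 to -0.32 with a median of -0.38. ND2 went from 344, 333 and 359 CPM in contWT to 243, 251 and 251 in T3Homo, at -0.48. ND1 went from 1086, 1072 and 1083 CPM to 846, 835 and 827, at -0.37 ± 0.02 (SE). For both genes all T3Homo libraries lay below all contWT libraries. ND6, which lies on the minus strand, stood at 4.16, 3.85 and 4.15 CPM in contWT and at 2.97, 2.92 and 3.20 in T3Homo, at -0.42 ± 0.10 (SE). Its neighbour ND5 overlaps it on the other strand, and the strand setting of the counting is not given in the sources used here, so reads in the overlap cannot be assigned.

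CYTB, the mitochondrial subunit of complex III, went from 1108, 1097 and 1143 CPM to 898, 912 and 932, at -0.29. Among the subunits of complex IV, the cytochrome c oxidase, COX1 went from 6954, 6900 and 7135 CPM to 5298, 5383 and 5435, at -0.38 ± 0.01 (SE). COX2 moved less, from 4830, 4868 and 5079 CPM to 4536, 4573 and 4630, at -0.11 ± 0.02. COX1 thus fell by an amount like that of complex I, and COX2 and COX3 (-0.13) by less. The ATP synthase subunits ATP8 and ATP6 were at -0.13 ± 0.03 and -0.22. The 4 smallest falls, those of COX2, ATP8, ATP6 and COX3, belong to genes that follow one another on the mitochondrial genome, from position 7111 to 9498. ATP8 overlaps ATP6 from position 8032 to 8041, and ND4L overlaps ND4 from 10271 to 10277. Reads over these short stretches may not be separate between the genes.

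The summed share of these 13 genes was 1.93%, 1.91% and 1.96% of counts in contWT and 1.70%, 1.70% and 1.72% in T3Homo. The groups did not overlap, and the difference was -0.227 percentage points (exact two-sided permutation p = 0.1, the smallest possible). Of the 13, 3 are among the 100 most abundant genes. Out of the counts outside those 100 genes, the share of the remaining mitochondrial genes went from 0.755% to 0.618%. In contHomo COX1 stood at 5913 CPM and COX2 at 5023, and in T3WT at 7608 and 6709. T3Homo was the lowest of the 4 groups for both genes.

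**Figure D4:**
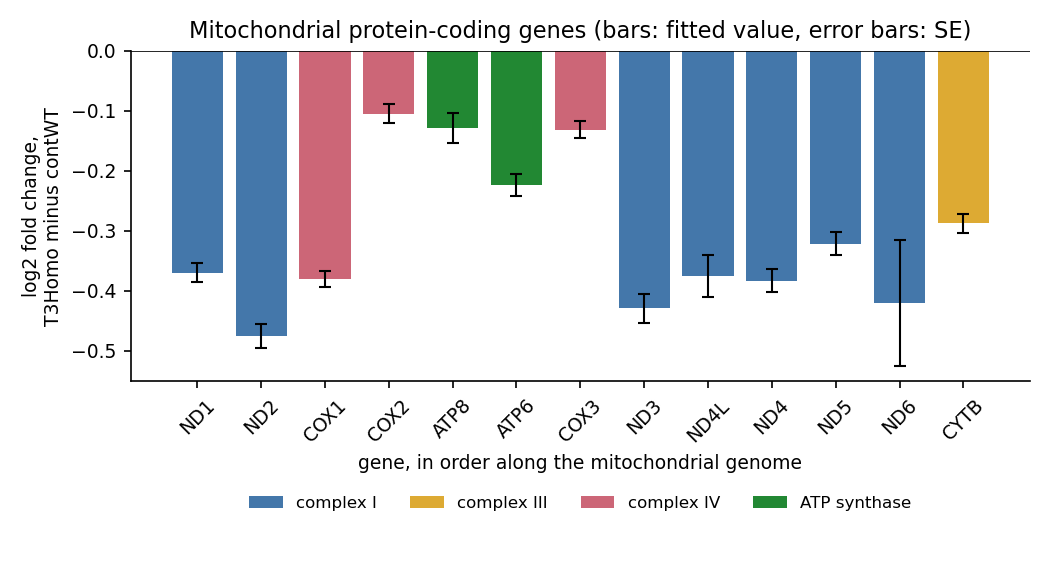
Log2 fold change, T3Homo minus contWT, of the 13 mitochondrial protein-coding genes in their order along the mitochondrial genome, coloured by respiratory complex. Bars are fitted values and error bars are standard errors. All bars lie below 0, and the run from COX2 to COX3 has the smallest falls, from -0.22 to -0.11.

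Some of the genes called lower lay next to one another. Of all genes tested 6.10% were called lower and 5.12% higher. A run was counted where at least 4 tested genes in a row on a scaffold were called in the same direction, and 2 runs were found, both lower in T3Homo. With runs of at least 3 genes there were 10, all lower, which held 35 of the 804 lower calls. No run of at least 3 genes was higher in T3Homo. How often called genes would fall side by side without any relation was not tested.

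The longest run covered 7 tested genes of 8 annotated on GL172646.1, positions 5071172 to 5183110. Their summed level was 119.4, 117.9 and 118.4 CPM in contWT and 8.27, 8.68 and 7.41 CPM in T3Homo. Every gene of the run fell, as the rule requires, with log2 fold changes from -6.95 to -3.18 and a median of -4.57. In contHomo the sum was 15.5 CPM and in T3WT 37.2 CPM, both between the values of T3Homo and contWT. Of the exon lengths in the run, 9 recur between genes and 1 of them is found in 4 genes. Exon lengths alone do not show that these genes are similar copies, and whether they share reads was not tested. If they do, such reads could be divided among the genes in a way that the deposited counts do not show. The values of single genes would then be uncertain.

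The other run of at least 4 genes was on GL172739.1, positions 4726 to 162639, where the sum of 4 genes went from 38.6 to 17.2 CPM, with a median log2 fold change of -1.24. Its member ENSXETG00000005172 had 25 counts in contWT and 14 in T3Homo, and ENSXETG00000005182 had 27 and 11. Nearly all of the sum came from the other members. Under total-count scaling this stretch no longer counted as a run of 4. Of the runs of 3 genes, that on GL172960.1, positions 216767 to 298791, had the largest fall, from 173.8 ± 1.04 to 3.11 ± 0.166 CPM (SD, n = 3), with a median log2 fold change of -5.80. Nearly all of that sum was 1 gene, at 170.6 CPM in contWT. The sum was at 27.4 CPM in contHomo and 28.8 in T3WT, so T3Homo was the lowest group by a wide margin.

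The runs did not share a single order of groups. On GL172721.1, positions 2368127 to 2436285, the sum went from 2026 ± 30.1 CPM in contWT to 537.4 ± 6.99 in T3Homo, with 518.3 in contHomo and 1741 in T3WT. There 1 gene of 18 exons decided the sum in T3WT: it stood at 1527 CPM in T3WT, 1056 in contWT and 456.6 in T3Homo. In the other genes T3WT lay nearer to T3Homo, at 201 CPM against 75.8 in T3Homo and 915 in contWT for one, and at 12.6 against 4.96 and 55.6 for the other. On GL173598.1, positions 64302 to 204715, the sum went from 10.2 to 0.879 CPM, with 0.957 in contHomo and 18.4 in T3WT. There 1 gene of 19 exons made up most of the T3WT sum, at 10.3 CPM in T3WT and 1.39 in contWT. It is among the genes detected in contWT only. The gene with most of the contWT sum was at 7.93 CPM in contWT and 6.58 in T3WT. On GL173192.1, positions 602540 to 703636, contWT stood at 276.2 and T3Homo at 117.9 CPM, while contHomo (344.2) and T3WT (718.8) were above both. The genes of that run share 29 exon lengths, and those on GL172721.1 share 10. The remaining runs, on GL172951.1, GL172695.1, GL172688.1 and GL172983.1, had contWT sums from 1.69 to 48.3 CPM and T3Homo sums from 0.595 to 17.6 CPM.

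**Figure D5:**
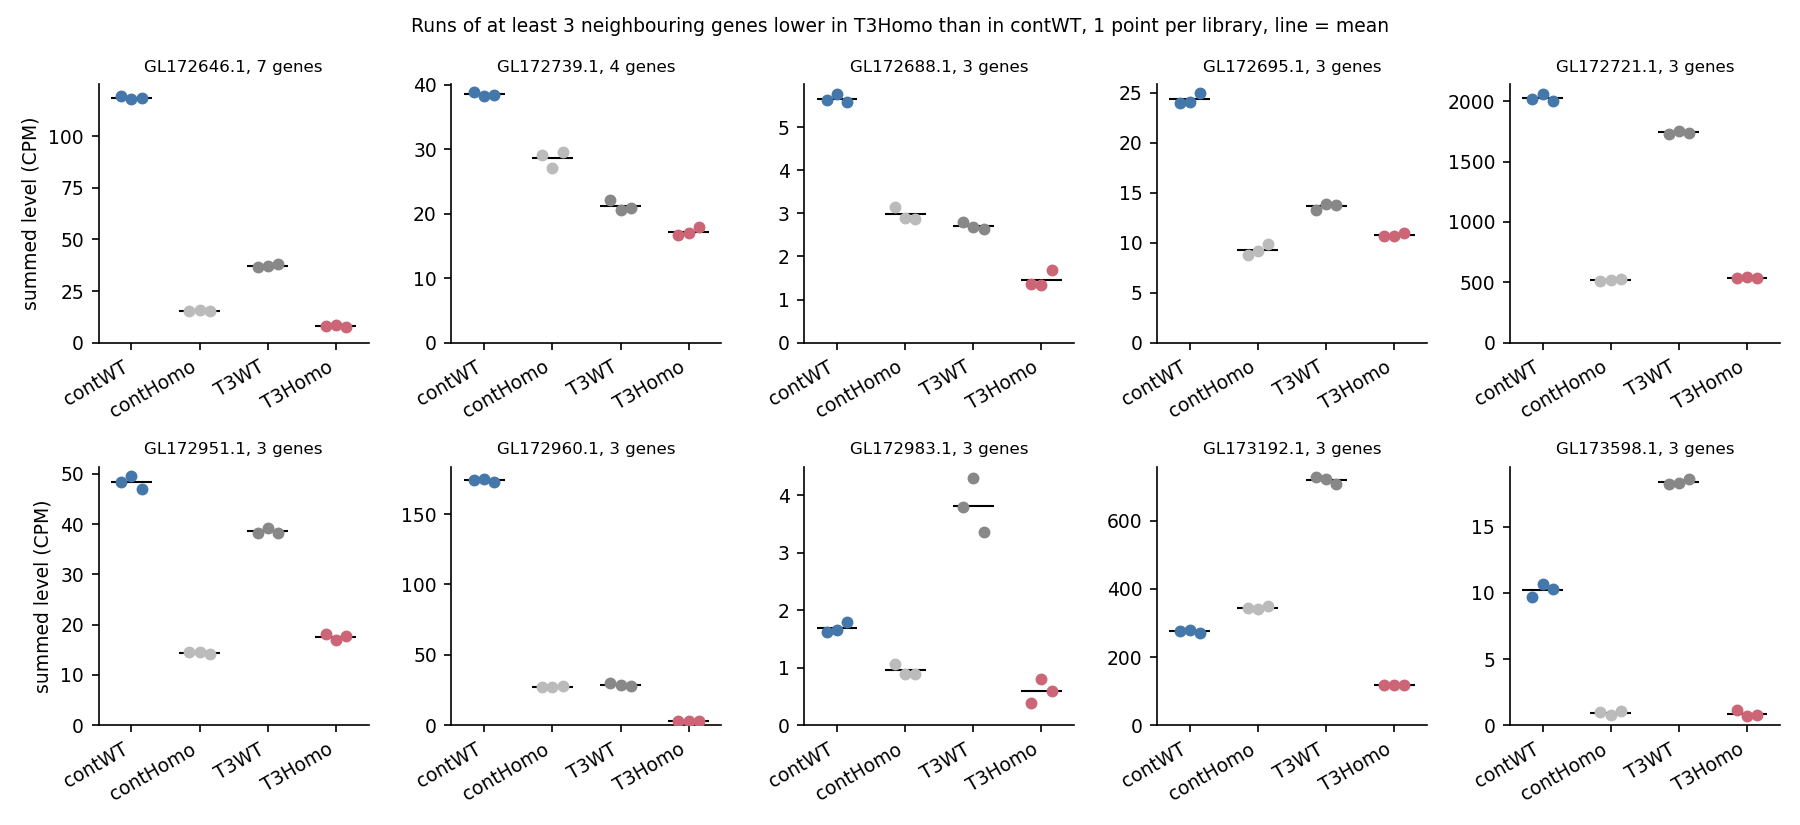
Summed level in CPM of the 10 runs of at least 3 neighbouring genes called lower in T3Homo, with 1 point per library and a line at the group mean, each panel on its own scale from 0. The runs were chosen as lower in T3Homo, so its points (red) lie below the contWT points (blue) by that rule. The contHomo and T3WT points (grey) take a different order from run to run.

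Pairs of neighbours with large changes were found in both directions and were chosen after their values were seen. On GL172993.1 a gene at positions 931135 to 932667 went from 0.253, 0.143 and 0.183 CPM in contWT to 53.1, 53.3 and 54.7 in T3Homo. Its log2 fold change was 8.09, a ratio of 277 with a counting interval of 179 to 454. Its neighbour at 939457 to 940502 went from 0.0843, 0.371 and 0.457 CPM to 51.1, 50 and 51.8. The neighbour's log2 fold change was 7.39, a ratio of 170 with a counting interval of 120 to 250. Both have 3 exons on the minus strand and share no exon length, but their total lengths are close, at 581 and 584 bases. Whether this pair shares reads was not tested. Each stood at 11.9 CPM in contHomo, and they were at 2.10 and 2.76 CPM in T3WT, so contHomo and T3Homo were the higher groups. On GL172941.1 the genes at 800053 to 800892 and at 812189 to 812836 went the other way. The former went from 16.8 ± 0.485 to 0.536 ± 0.0696 CPM and the latter from 8.66 ± 0.224 to 0.224 ± 0.128 (SD, n = 3). Both were also low in contHomo (0.364 and 0.210) and in T3WT (1.03 and 0.365).

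The levels of the called genes in the other groups differed between directions. Levels were compared as differences from contWT on the log2(CPM + 0.5) scale, which understates the change of low genes. Over the 674 higher genes the median difference was 1.05 in T3Homo, 0.43 in contHomo and 1.03 in T3WT. Over the 804 lower genes it was -1.0 in T3Homo, -0.41 in contHomo and -0.15 in T3WT. Over all genes tested the medians were 0.00, -0.02 and 0.05. The contrast was larger among changes of at least 16-fold: the 22 higher genes had medians of 2.13 in T3Homo, 0.55 in contHomo and 1.96 in T3WT, and the 56 lower genes of -2.25, -1.88 and 0.22. The spread in T3WT was wide, with quartiles of 0.69 and 4.37 for the 22 and of -2.04 and 1.25 for the 56. The 56 thus went both ways in T3WT. All of these differences use the contWT libraries that also chose the genes, so they are a description and were not tested.

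T3WT and contHomo share no library with T3Homo and contWT, so their own contrast was read for the same genes. It called 2476 genes (18.8%), 1830 of them higher in T3WT (13.9%) and 646 lower (4.90%). Of the 674 genes higher in T3Homo, 270 were higher in T3WT (40.1% of the 674 and 14.8% of the 1830), 53 were lower and 351 were not called. Of the 804 genes lower in T3Homo, 261 were higher in T3WT (32.5% of the 804 and 14.3% of the 1830), 109 were lower (13.6% of the 804 and 16.9% of the 646) and 434 were not called. The median log2 fold change, T3WT minus contHomo, was 0.79 over the higher genes and 0.46 over the lower genes, beside 0.07 over all. The shares called in either direction were thus above those of all genes for both lists, which was not tested. Both lists lean to genes of low level, and they were not compared with genes of like level. The tilt towards T3WT depended on the scaling: 73.9% of this contrast's calls were higher in T3WT with TMM factors and 91.7% with total-count scaling, which moved the median of all genes to 0.45. The T3WT libraries had a mean TMM factor of 1.21, against 0.921 to 0.962 in the other groups.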

How the data were processed

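RNA-seq of tadpole intestine was deposited as 1 table of read counts per gene with 12 library columns. The deposited values are whole-number counts, not normalized, per the file headers. The submitters' processing notes name STAR 2.5.3a, an aligner, and featureCounts 1.4.6-p3, a read counter. Not given in the sources used here are the build, the annotation, the strand setting and how multiply aligned reads were treated. All 12 columns were used, and 0 were set aside. Coordinates are those of the deposited table.

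Genes were filtered with filterByExpr by group (13172 of 19921 kept) and scaled with TMM factors. CPM are counts scaled to a common effective library size (library total times TMM factor). All 12 libraries entered 1 edgeR 4.0.16 fit (R 4.3.3) with the 4 groups as coefficients and no covariates; contrasts were tested by quasi-likelihood with Benjamini-Hochberg adjustment over all genes tested. Repeat libraries varied little (common dispersion 0.000172), so a call also needed a fold change of 2 or more. Pairs of libraries of a group differed by more than sampling noise (chi-square per gene 1.25 to 1.84, largest p 4.71e-78). They were entered as separate libraries, but they remain repeat libraries of 1 RNA sample. Single values per library were compared with an exact two-sided permutation test. The scripts were tested on simulated data. Folds against 0 counts used a floor of 3 counts over the group, and counting intervals are exact at 95% and, like the floor, cover counting error only.

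Named nuclear genes are the first 2 rises and 2 falls by log2 fold change among called genes with at least 5 CPM in the higher group and no overlap between libraries. The rule asked for genes with symbols first. As none could be paired, the 23 gene lists and cell type markers were not analysed here. Runs count neighbours among the genes tested. The comparison, its members and the lists were chosen with earlier results of these data known. Alternatives covered scaling, filter, tool (DESeq2 1.42.0), libraries in the fit, replicate number as a block, fold threshold, left-out libraries and the thresholds of the other measures. No sequences are shown, because no sequence table was used here.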

Additional observations from a re-analysis of the deposited data

How the results depend on the processing

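Of 346 values recomputed under alternatives, 329 were labelled the same in direction, side of the threshold or approximate size, 16 moved and 1 reversed. Values labelled the same could still differ: calls for T3WT against contHomo went from 2476 to 3467 with total-count scaling. Counts of calls were labelled singly, so a turn in the split between higher and lower calls was not labelled as reversed. Calls for T3Homo against contWT stayed between 1293 (6 libraries only) and 1672 (no filter on low counts) under another scaling, filter, tool or set of libraries. Testing against 2-fold with glmTreat left 794 calls, 362 higher and 432 lower, and dropping the fold threshold gave 9049, 4546 higher and 4503 lower. Total-count scaling made 50.8% of calls higher (763 against 739 lower), against 45.6%. Leaving out single libraries gave 1490 to 1529 calls. Over all genes the median log2 fold change was -0.0097 with RLE factors, 0.062 with total-count scaling, -0.0098 with DESeq2, and between -0.0062 and 0.0023 without single libraries. The direction for the most abundant genes reversed with 50 genes, to 0.290 percentage points; the cause was not tested. Genes detected in contWT only numbered 18 with a floor of 10 counts and 13 with 0.5 CPM. Runs numbered 10 at a minimum of 3 genes, 1 at 5 genes and 1 with total-count scaling. All 13 mitochondrial genes fell under every alternative run, at a largest adjusted p of 0.0151 (ATP8). The size of the falls depended on the scaling, and each was smaller with total-count scaling. COX2 then went from a log2 fold change of -0.105 to -0.043, ATP8 from -0.129 to -0.067 and COX3 from -0.132 to -0.070.

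Deviations of same-numbered libraries from their group means had correlations of -0.0137 to 0.0381. Much of the deviation between repeat libraries is counting noise, so values near 0 cannot decide whether the numbers pair the libraries. A fit with the replicate block gave 1473 calls, 1472 of them shared with the fit without it.

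Single pools, a genotype that changes together with the treatment, and contradictory labels on the other groups limit every comparison. Values of genes at a few counts are uncertain, and counting intervals are printed for some of these genes only. Whether neighbouring genes, with or without shared exon lengths, share reads was not tested.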
